A study of Rattus norvegicus with 16 samples.

Results

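The 2 libraries of Schwann cells purified from rat sciatic nerve 5 days after a crush were compared with the 2 libraries of Schwann cells from uncrushed nerve. These are 4 of the 16 libraries of the series, chosen by their labels, and every gene measured in them was considered. The other 12 libraries hold Schwann cells at 3 and 7 days and whole sciatic nerve at the same times, 2 per group. The labels name no transgene, strain or treatment other than the crush, which was made at postnatal day 18 under anaesthesia with carprofen as analgesic, and the segment distal to it was taken. The uncrushed libraries came from the matching stretch of uninjured nerve, without a sham operation. Whether those animals had the analgesic is not stated. The labels give postnatal day 18 for every library and do not say whether that is the age at crush or at collection, so a difference in age between the groups cannot be told apart from the crush. Each Schwann cell library pooled nerves of several animals, and the cells were taken with an antibody to O4, a surface lipid of both myelinating and non-myelinating Schwann cells, after plates against CD45 and Thy1 had removed leukocytes and fibroblasts. The labels do not say whether the pools of a group were made on separate days, and p-values here measure only the spread between these pools, which may be technical in part. The comparison asks what state Schwann cells are in midway through the first week after axons are cut.

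Schwann cells wrap and myelinate axons of peripheral nerve. When axons are cut, the cells downstream lose contact with them, switch off the myelin program, take up myelin debris, divide, and turn to a repair state in which they secrete growth factors and guide regrowing axons. Egr2 (Krox20) drives the myelin program, while Jun, Sox2 and Runx2 are known from the repair or immature state.

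The total of expected counts (the number of fragments that RSEM, a read assignment program, gave to the genes) was 14033930 and 12599974 in the uncrushed libraries and 18678860 and 16562931 at day 5. Levels are given as FPKM, fragments scaled by gene length and sequencing depth. The label was checked against markers. Sox10, the lineage factor of Schwann cells, lay at 59.1 and 69.6 FPKM in uncrushed and 63.9 and 66.3 FPKM at day 5, and it was the 1 gene not called of 11 Schwann cell markers, of which 5 rose and 5 fell. These 11, which include myelin genes and genes of the immature state, summed to 9423 to 9610 FPKM in uncrushed libraries and 5335 to 5488 FPKM at day 5. The 18 macrophage and myeloid markers summed to 11 to 26.4 FPKM in uncrushed libraries and 15.2 to 34.2 FPKM at day 5, against 1833 to 1961 FPKM in whole nerve at day 5. Of the 21 neutrophil and lymphocyte markers 17 in uncrushed and 17 at day 5 were at 3 counts or fewer in both libraries of the group, though not the same 17, since Cd8a reached 4 counts in 1 uncrushed library and Gzmb 10.2 counts in 1 day 5 library. The 14 fibroblast markers summed to 1456 to 1700 FPKM in uncrushed and 317 to 409 FPKM at day 5, most of it from collagen genes that Schwann cells also express, and Dcn, a fibroblast proteoglycan, lay at 16.9 and 7.92 FPKM and then 5.47 and 3.12 FPKM (log2 fold change -1.53 ± 0.50, or -0.92 and not called without uncrushed replicate 1, and not called without day 5 replicate 2). Mfap5, a microfibril protein of fibroblasts, went from 959 and 1041 counts to 39 and 36 counts (log2 fold change -5.16 ± 0.20). The 11 neuron markers went from 4.86 to 5.59 FPKM in sum to 31.5 to 39.8 FPKM, nearly all of it Uchl1, an enzyme that trims ubiquitin, and Rbfox3 was at 0 in all 4 libraries. The myeloid sum and the neutrophil and lymphocyte sum overlapped between the groups, and the fibroblast and neuron sums did not. Like the Schwann cell sum, others were lower at day 5 without overlap, those of 14 endothelial markers (5.93 to 7.32 FPKM, then 2.35 to 2.74 FPKM), 11 pericyte and smooth muscle markers (53.1 to 63.3 FPKM, then 16.1 to 17.3 FPKM), 9 perineurial markers (223 to 250.4 FPKM, then 148 to 153 FPKM) and 6 satellite glial markers (145 to 168 FPKM, then 60.6 to 77.3 FPKM). Tek and Kdr made up most of the endothelial sum in uncrushed cells, and 3 of 6 tested members fell. Pdgfrb and Tagln made up most of the pericyte and smooth muscle sum, and 2 of 8 tested members fell. Tjp1, Itgb4 and Slc2a1 made up nearly all of the perineurial sum, and of 6 tested members 3 fell and 2 rose. Glul, glutamine synthetase, made up most of the satellite glial sum, and of 5 tested members 3 fell and 1 rose. The sum of 15 muscle, fat and red blood cell markers was higher without overlap (13.6 to 24.0 FPKM, then 42.0 to 49.2 FPKM), nearly all of it at day 5 from the globins Hba1 (6.19 and 16.6 FPKM, then 35.6 and 32.5 FPKM) and Hbb, neither of which was called (log2 fold changes 1.52 ± 0.90 and 1.15 ± 0.94, adjusted p = 0.17 and 0.32). The part of these cell types in the results was not tested. Thy1, the antigen used to remove fibroblasts, was at 4 and 1 counts in uncrushed cells and 30 and 18 counts at day 5, and its rise was not called without uncrushed replicate 2 or day 5 replicate 1 (adjusted p = 0.0926 and 0.0767).

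**Figure D1:**
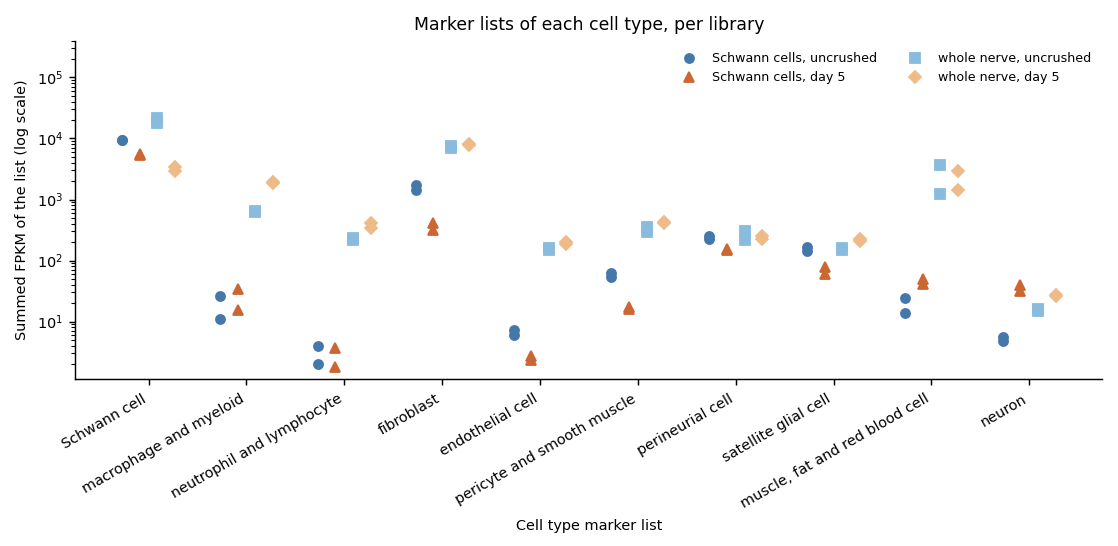
Summed FPKM of 10 cell type marker lists (vertical axis, log scale) in each library, with circles for uncrushed Schwann cells, triangles for day 5 Schwann cells, squares for uncrushed whole nerve and diamonds for whole nerve at day 5. The myeloid list lies at 11 to 34.2 FPKM in the purified cells and at 616 FPKM or more in whole nerve, and the fibroblast list at 1456 to 1700 FPKM in uncrushed and 317 to 409 FPKM in day 5 Schwann cells.

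At day 5 the transcriptome differed from uncrushed cells in 8167 of its 14961 tested genes. These 8167 genes (54.6%) were called at an adjusted p below 0.05 (4333 higher, 29.0%, and 3834 lower, 25.6%) by the quasi-likelihood test of edgeR, adjusted over all tested genes after Benjamini and Hochberg, which gives every adjusted p below. Falls were more often large than rises. Of the called genes 1798 (12.0% of those tested) were at least 2-fold higher and 2415 (16.1%) at least 2-fold lower, and 302 (2.02%) were at least 8-fold higher against 525 (3.51%) at least 8-fold lower. The median log2 fold change of all tested genes was 0.06. With only 2 libraries a group, an exact permutation test of a single gene cannot go below p = 0.333. Cells were sequenced in bulk, so fewer cells of a kind and less RNA per cell cannot be told apart.

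**Figure D2:**
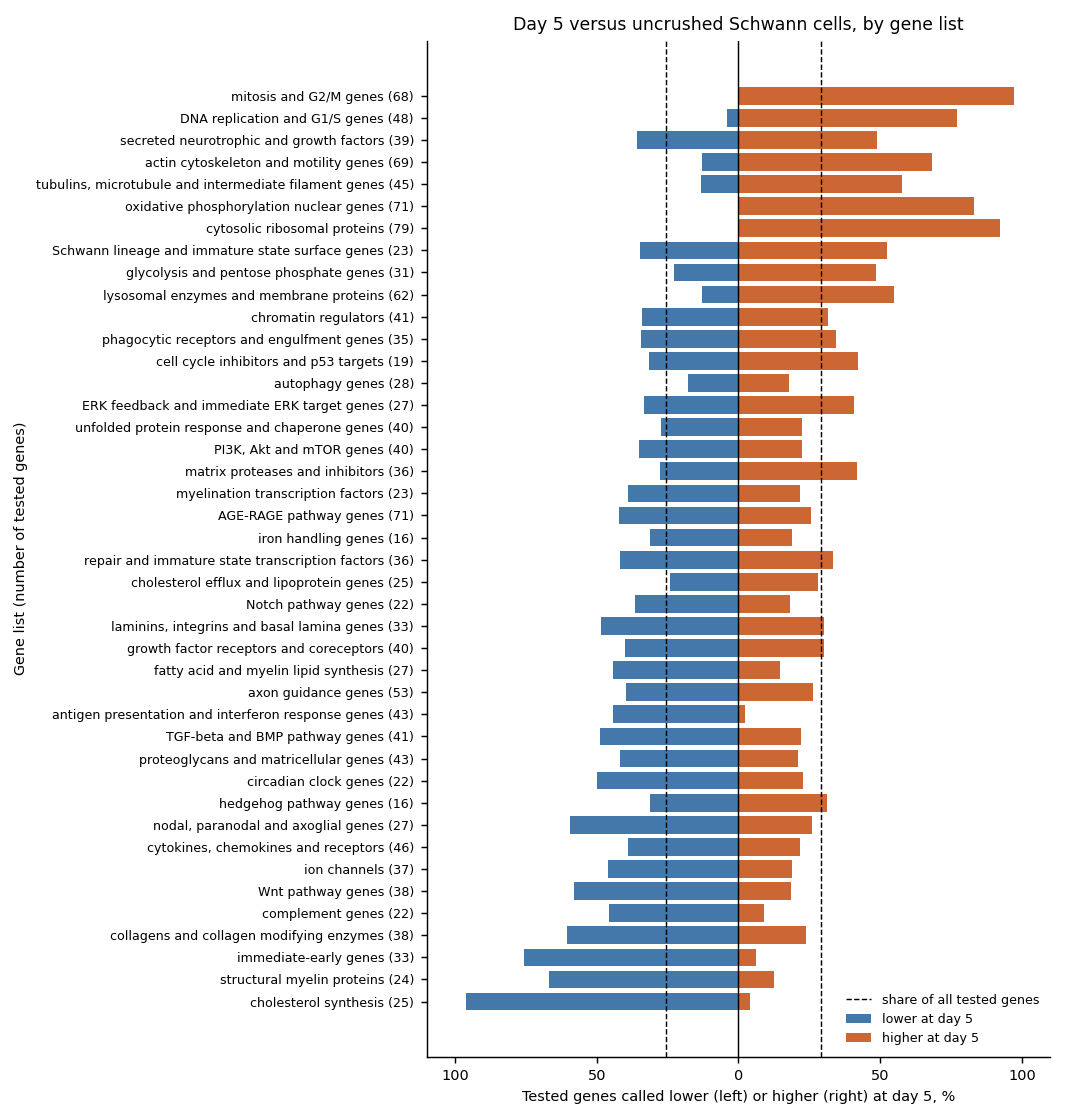
Share of each gene list called lower (bars to the left) or higher (bars to the right) at day 5, in percent of its tested genes, with lists ordered by their median log2 fold change and the number of tested genes in brackets. Dashed lines mark the 29.0% higher and 25.6% lower of all tested genes, and the bars run from cholesterol synthesis, with 24 of 25 genes lower, to mitosis, with 66 of 68 higher.

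Structural myelin genes were lower at day 5, though the most abundant of them were still strongly expressed. Of 24 tested, 16 fell, 3 rose and 5 were not called, with a median log2 fold change of -1.62. Pmp22, a tetraspan myelin protein, stood at 8584 and 8721 FPKM in uncrushed libraries and at 1120.2 and 1118 FPKM at day 5. Mbp, which compacts the cytoplasmic face of myelin, stood at 1584 and 1736 FPKM and then 469.5 and 517 FPKM. The groups were far apart for both, with log2 fold changes of -2.99 ± 0.12 (SE) for Pmp22 and -1.82 ± 0.14 for Mbp (adjusted p = 1.3e-07 and 4.2e-06). Drp2, which joins periaxin to the outer Schwann cell membrane, was nearly lost, from 67.7 and 75.5 FPKM to 1.21 and 1.81 FPKM (47.5-fold lower). Its partner Prx went from 124 and 141 FPKM to 15.3 and 18.5 FPKM. Mal, a myelin proteolipid, changed by -3.56 ± 0.16. Pmp2, a fatty acid carrier of myelin, did not follow. Its levels of 226 and 179 FPKM and 203 and 198 FPKM overlapped (log2 fold change -0.04 ± 0.16, adjusted p = 0.84). The 3 that rose were Cd82, a tetraspanin (2.65 ± 0.15), Cldn11, a tight junction protein, and Dag1, dystroglycan.

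Cholesterol synthesis was the most uniformly lowered list. Of its 25 tested genes 24 fell and 1 rose, with a median of -2.05. Hmgcs1, an early enzyme of the pathway, stood at 876 and 777 FPKM in uncrushed cells and 99.4 and 117 FPKM at day 5. Fdft1, squalene synthase, stood at 108 and 116 FPKM and then 8.91 and 9.34 FPKM. No uncrushed library came near a day 5 library for either gene, whose log2 fold changes were -2.95 ± 0.13 and -3.64 ± 0.12 (adjusted p = 2.4e-07 and 7.2e-08). Sqle, squalene epoxidase, changed by -2.42 ± 0.17. The single gene that rose was Scap, the sterol sensor that escorts the SREBP factors, from 11 and 10.7 FPKM to 14.4 and 17.0 FPKM. Of 18 promoters matched for this list, 4 (22.2%) held the letters CACCCCA, the core of a sterol response element, on either strand, against 6.79% of all 27457 promoters of the table.

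Fatty acid and myelin lipid synthesis was mixed, with 12 of 27 genes lower, 4 higher and a median of -0.34. Elovl7, a fatty acid elongase, fell from 29.2 and 35.9 FPKM to 2.13 and 1.26 FPKM, and Fasn, fatty acid synthase, changed by -1.22 ± 0.09 on the log2 scale. Ugt8, which makes the myelin lipid galactosylceramide, changed by -1.01 ± 0.11. Fads2, a desaturase, moved the other way, from 54.8 and 56.6 FPKM to 155 and 156 FPKM (log2 fold change 1.41 ± 0.11). In the list for cholesterol efflux and lipoproteins 7 of 25 were higher (28.0%) and 6 lower (24.0%), near the shares of all tested genes. More of them fell in a fit of all 16 libraries. Abca1, the pump that exports cholesterol, was at 30.2 and 32.2 FPKM in uncrushed cells and 236 and 238 FPKM at day 5, while Apoe, a lipoprotein, went from 176 and 224 FPKM to 48.0 and 40.4 FPKM. Both pairs of groups were clear of each other (log2 fold changes 2.90 ± 0.10 and -2.21 ± 0.18).

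Genes of the node of Ranvier and of contact between Schwann cell and axon were mostly lower, 16 of 27 against 7 higher, with a median of -0.58. Gldn, which gathers sodium channels at nodes, fell by 6.61-fold and Nfasc, an adhesion protein of node and paranode, by 2.87-fold. Nrcam, another nodal adhesion protein, rose (1.29 ± 0.09), as did Cadm4, a binding partner on the Schwann cell side (0.58 ± 0.14). Among 37 ion channel genes 17 fell and 7 rose. Scn7a, the sodium-sensing channel, stood at 1673 and 1667 FPKM in uncrushed cells and at 125 and 109 FPKM at day 5, and Kcna2, a potassium channel, at 62.3 and 65.3 FPKM and 4.35 and 3.48 FPKM. They fell 14.3-fold and 14.4-fold, with no overlap. Ano1, a chloride channel, rose furthest of the 7, from 0.120 and 0.170 FPKM to 4.59 and 4.14 FPKM.

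**Figure D3:**
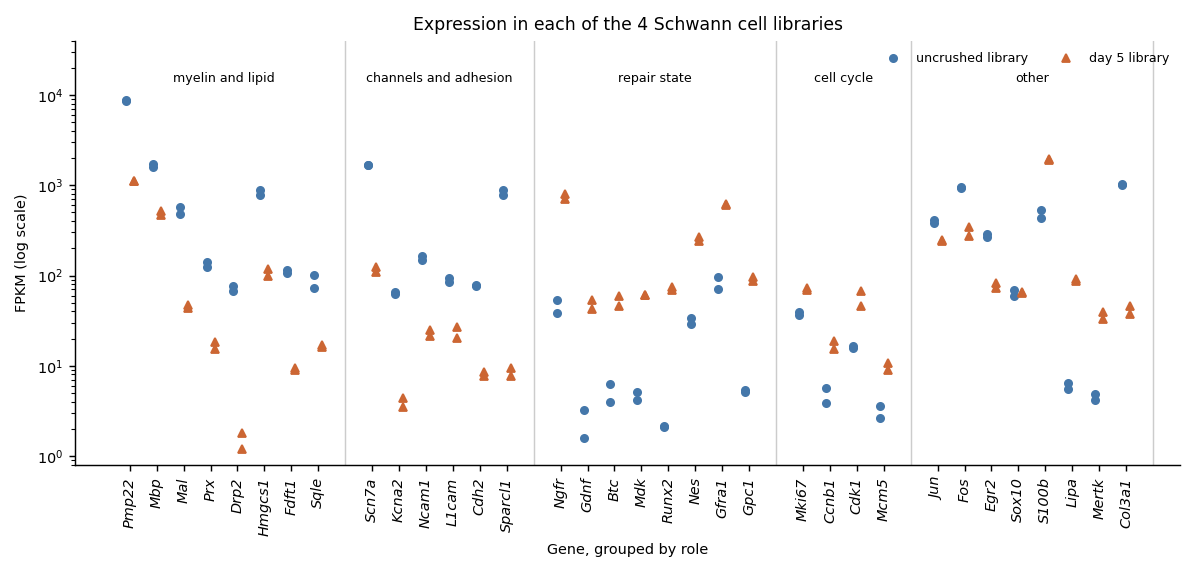
FPKM (vertical axis, log scale) of 34 genes in each of the 4 Schwann cell libraries, with blue circles for uncrushed and orange triangles for day 5, grouped by role. For every gene shown but Sox10 the 2 symbols of each group lie apart from those of the other group, with Prx falling from 124 and 141 to 15.3 and 18.5 FPKM and Ngfr rising from 54.0 and 38.0 to 809 and 714 FPKM.

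The transcription factors did not move as 1 block. Of 23 factors of myelination 9 fell and 5 rose (3 rose without uncrushed replicate 1 or day 5 replicate 2), with a median of -0.05. Egr2 stood at 270.0 and 286 FPKM in uncrushed cells and 81.8 and 72.8 FPKM at day 5 (log2 fold change -1.89 ± 0.13, adjusted p = 2.3e-06). Sox10 and Pou3f1, the factor that precedes Egr2, were not called (-0.01 ± 0.12 and 0.19 ± 0.14). Of 36 factors of the repair and immature state 12 rose (33.3%) and 15 fell (41.7%), against 29.0% and 25.6% of all tested genes, with a median of -0.19. Runx2 rose from 2.10 and 2.16 FPKM to 69.0 and 75.1 FPKM (31.7-fold) and Sox2, which holds Schwann cells immature, from 25.9 and 18.9 FPKM to 49.4 and 42.6 FPKM. Hmga2, a chromatin protein of growing cells, had no count in either uncrushed library and 38 and 26 counts at day 5, at least 7.98-fold higher against a floor of 3 counts per library. Jun went the other way, from 383 and 408 FPKM to 244 and 245 FPKM (log2 fold change -0.72 ± 0.10, adjusted p = 2.0e-04), and Etv1, an ETS factor, changed by -2.88 ± 0.15. Jun is also an immediate-early gene, and in whole nerve it rose (log2 fold change 1.61). The part that cell purification takes in its level was not tested.

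The surface and filament genes used to name immature and repair Schwann cells divided sharply. Of 23 tested, 12 rose and 8 fell, with a median of 0.50. Ngfr, the p75 neurotrophin receptor, stood at 54.0 and 38.0 FPKM in uncrushed cells and 809 and 714 FPKM at day 5. Nes, nestin, stood at 29.1 and 33.7 FPKM and then 243 and 264 FPKM, and Cd24, a surface sialoglycoprotein, at 5.20 and 5.50 FPKM and then 162 and 146 FPKM. These rises were large against the spread of either group, at 16.3-fold, 7.87-fold and 28.3-fold (adjusted p = 3.2e-07, 2.4e-07 and 6.5e-08). Ncam1, L1cam and Gfap, all textbook genes of non-myelinating and denervated Schwann cells, were lower at day 5. Ncam1 fell from 164 and 150.2 FPKM to 24.9 and 21.5 FPKM, L1cam from 92.7 and 84.0 FPKM to 26.7 and 20.5 FPKM and Gfap from 96.9 and 92.7 FPKM to 25.8 and 28.1 FPKM. Cdh2, N-cadherin, fell further, from 79.2 and 76.7 FPKM to 8.6 and 7.77 FPKM (log2 fold change -3.27 ± 0.11). S100b, a calcium-binding protein of the lineage, rose (1.97 ± 0.12).

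Secreted growth factors included some of the strongest rises. Of 39 tested, 19 rose and 14 fell, with a median of 0.79. Gdnf, a survival factor of motor and sensory neurons, stood at 3.26 and 1.60 FPKM in uncrushed cells and 42.3 and 53.2 FPKM at day 5. Btc, an ErbB ligand, stood at 6.25 and 3.93 FPKM and then 59.5 and 45.5 FPKM, and Mdk, midkine, at 5.10 and 4.12 FPKM and then 60.9 and 61.0 FPKM. The groups did not overlap for any of these, with log2 fold changes of 4.22 ± 0.26, 3.30 ± 0.28 and 4.19 ± 0.19. Edn3, endothelin 3, had no count in the uncrushed libraries and 49.0 and 44.4 FPKM at day 5, at least 111-fold higher against the floor. Shh, sonic hedgehog, was at 3 and 1 counts in uncrushed and 87 and 121 counts at day 5, at least 26.5-fold higher. Bdnf rose to a low level, from 0.260 and 0.130 FPKM to 1.57 and 2.19 FPKM, and Lif, a cytokine that acts on neurons and Schwann cells, from 0.690 and 0.270 FPKM to 6.02 and 6.32 FPKM. Artn, a GDNF family ligand, missed the threshold (0.97 ± 0.38, adjusted p = 0.0534). Among the falls, Sparcl1, a matricellular protein, went from 895 and 771 FPKM to 9.34 and 7.65 FPKM. Cntf, a neurotrophic cytokine stored in Schwann cells, fell 1.67-fold. Gdf15, a stress cytokine, changed by -4.85 ± 0.94 on the log2 scale, by -8.86 without day 5 replicate 2, which held its only counts at day 5, and by -3.83 and -4.10 without day 5 replicate 1 or uncrushed replicate 2.

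Of 40 receptors for such factors 12 were higher and 16 lower. Gfra1, the GDNF coreceptor, rose from 96.0 and 70.0 FPKM to 598 and 617 FPKM, and Gpc1, a heparan sulfate coreceptor, from 5.09 and 5.44 FPKM to 86.2 and 95.6 FPKM. Ret, the signalling partner of Gfra1, had at most 5 counts in any of the 4 libraries. Erbb3, the neuregulin receptor, rose modestly (0.50 ± 0.09, adjusted p = 0.0015), and Ntrk2, a neurotrophin receptor, fell from 114 and 92.5 FPKM to 6.71 and 5.02 FPKM. Of 27 feedback and target genes of the ERK pathway 11 rose (40.7%) and 9 fell (33.3%), against 29.0% and 25.6% of all tested genes. Dusp10, a phosphatase of MAP kinases, rose from 19.3 and 17.0 FPKM to 149 and 213 FPKM, Etv5 by 1.39 ± 0.18, and Spry4, a feedback inhibitor, fell by 2.27-fold. Dusp6, a phosphatase of ERK, was not called (0.06 ± 0.14).

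Genes of the cell cycle were higher at day 5. Of 68 mitosis and G2/M genes 66 rose, none fell and 2 were not called (Cdc25b at -0.02 ± 0.24 and Depdc1), with a median of 1.24. Of 48 DNA replication genes 37 rose and 2 fell (1 without uncrushed replicate 1 or day 5 replicate 2), a median of 0.95. Ccnb1, the mitotic cyclin, stood at 5.62 and 3.91 FPKM in uncrushed cells and 15.4 and 19.0 FPKM at day 5, and its kinase Cdk1 at 16.6 and 15.7 FPKM and 46.4 and 66.6 FPKM. Mki67, the proliferation marker, was already at 39.1 and 37.0 FPKM in uncrushed cells and reached 73.5 and 69.7 FPKM (log2 fold change 0.89 ± 0.10). Each rise was modest in size but clear of the replicate spread. Ccnd1, cyclin D1, rose 5.06-fold while Cdk6, one of its partner kinases, fell from 84.2 and 92.8 FPKM to 17.4 and 17.2 FPKM. Pcna rose 1.49-fold and Mcm5, of the replication helicase, 3.11-fold. Ccne1, cyclin E1, rose by 1.08 ± 0.36 and was not called without either uncrushed library or without day 5 replicate 2 (0.81, adjusted p = 0.155). Of 19 inhibitors of the cycle and p53 targets 8 rose (5 without day 5 replicate 2) and 6 fell. Their shares were 42.1% higher and 31.6% lower, against 29.0% and 25.6% of all tested genes. Gadd45a rose from 86.8 and 111 FPKM to 499 and 631 FPKM, Cdkn1a (p21) fell from 27.1 and 31.7 FPKM to 11 and 14.2 FPKM, and Cdkn2a had no count in any of the 4 libraries.

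Promoters of genes that rose together in the cycle are shown because their letters can be read against the expression values. RefSeq promoters of build GRCr8 (250 bases before to 50 after the start) were matched by symbol for 58 of the 68 mitosis genes. The letters TTTGAA, the cell cycle homology region, were found in 39 of them (67.2%) on either strand, against 18.1% of all 27457 promoters, and CCAAT in 42 (72.4%) against 37.7%. Of 35 matched replication genes 10 (28.6%) held TTGGCGC, an E2F type element, against 2.43%. The 27457 promoters, used for every motif given here, include those of genes that were not tested, and 10087 tested genes had one. The 150 bases before the start are printed 5′ to 3′ on the strand of the gene, for the 3 called mitosis genes of largest change that hold TTTGAA and CCAAT there (Spc25, chr3:74396719-74396868, minus strand; Cdk1, chr20:19265143-19265292, plus strand; Kif23, chr8:71320585-71320734, minus strand) and for the called replication gene of largest change that holds TTGGCGC there (Mcm6, a helicase subunit, chr13:42404353-42404502, minus strand). Capitals mark the motifs of the gene's own list on either strand.
Spc25: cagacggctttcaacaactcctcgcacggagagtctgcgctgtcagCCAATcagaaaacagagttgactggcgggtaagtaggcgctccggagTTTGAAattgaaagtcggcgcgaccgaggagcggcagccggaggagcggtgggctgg
Cdk1: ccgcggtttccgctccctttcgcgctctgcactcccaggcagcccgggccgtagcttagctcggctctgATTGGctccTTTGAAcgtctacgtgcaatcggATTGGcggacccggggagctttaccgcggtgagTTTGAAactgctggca
Kif23: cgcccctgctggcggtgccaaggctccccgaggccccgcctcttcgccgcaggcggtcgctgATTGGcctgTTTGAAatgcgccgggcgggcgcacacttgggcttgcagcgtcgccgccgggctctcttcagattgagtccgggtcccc
Mcm6: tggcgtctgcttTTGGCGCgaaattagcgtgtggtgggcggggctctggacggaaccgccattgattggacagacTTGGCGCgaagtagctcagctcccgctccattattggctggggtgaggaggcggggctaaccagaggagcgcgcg
Spc25, a kinetochore protein, rose by 1.93, Cdk1 by 1.77, Kif23, a motor of cytokinesis, by 1.75 and Mcm6 by 1.51 on the log2 scale. In Cdk1 and Kif23 a CCAAT box, read there as ATTGG, and a TTTGAA lie 4 bases apart. A match of letters is a description and not a binding site.

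Lysosomal genes were more often higher than lower. Of 62 lysosomal genes 34 rose and 8 fell (5 without uncrushed replicate 1), with a median of 0.42. Lipa, the acid lipase that frees cholesterol from its esters, stood at 6.45 and 5.48 FPKM in uncrushed cells and 86.3 and 90.5 FPKM at day 5. Galc, which degrades the myelin lipid galactosylceramide, stood at 14.8 and 11.5 FPKM and then 63.0 and 59.3 FPKM, and the protease Ctsd at 45.6 and 47.2 FPKM and then 124 and 173 FPKM. All day 5 libraries lay above all uncrushed libraries for these genes (log2 fold changes 3.87 ± 0.15, 2.18 ± 0.12 and 1.64 ± 0.15). Lamp1, a lysosomal membrane protein, rose 1.91-fold and Ctsb 2.13-fold. Of 45 lysosomal promoters matched, 10 (22.2%) held TCACGTG, an E-box of the kind bound by TFEB, against 3.43% of all promoters. The 150 bases before the start of Galc (chr6:123245560-123245709, minus strand) and Ctsd (chr1:206968822-206968971, minus strand) carry it close to the start, as does that of Sgsh, a heparan sulfatase (chr10:105112010-105112159, minus strand), the 3 called lysosomal genes of largest change that hold it there, with the letters in capitals on either strand.
Galc: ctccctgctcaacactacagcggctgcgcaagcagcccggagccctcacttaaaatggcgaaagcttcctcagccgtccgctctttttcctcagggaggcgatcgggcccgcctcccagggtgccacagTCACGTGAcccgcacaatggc
Sgsh: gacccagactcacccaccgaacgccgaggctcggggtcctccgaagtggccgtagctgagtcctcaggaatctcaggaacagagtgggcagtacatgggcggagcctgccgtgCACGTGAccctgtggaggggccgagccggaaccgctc
Ctsd: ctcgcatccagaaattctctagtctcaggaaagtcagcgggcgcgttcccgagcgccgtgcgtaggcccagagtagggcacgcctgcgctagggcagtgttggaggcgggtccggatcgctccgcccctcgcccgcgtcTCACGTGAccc
Sgsh fell (-1.67 ± 0.52), so these letters stand before genes that moved both ways, though it was not called without uncrushed replicate 1 (-1.30, adjusted p = 0.181) or without either day 5 library. Of 35 phagocytic receptors and engulfment genes 12 rose and 12 fell (34.3% each, not far from the shares of all tested genes). Mertk, which binds apoptotic cells and myelin, rose from 4.83 and 4.2 FPKM to 33.0 and 39.9 FPKM and its relative Axl from 37.8 and 31.0 FPKM to 88.3 and 84.1 FPKM, whereas Fcgr2b, an Fc receptor, fell from 5.17 and 4.61 FPKM to 0.270 and 0.100 FPKM (log2 fold change -4.69 ± 0.89, or -5.57 without day 5 replicate 1). Lgals3, galectin 3, rose 2.31-fold. Of 28 autophagy genes 5 rose, 5 fell (17.9% each, below the shares of all tested genes) and 18 were not called. Its risers included Sqstm1, a cargo receptor (0.83 ± 0.12), and Map1lc3b, a membrane protein of autophagosomes (0.71 ± 0.10). Without uncrushed replicate 1 the number rising was 9, without day 5 replicate 2 it was 3, and without either day 5 library 3 autophagy genes fell.

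Extracellular matrix genes were more often lower. Of 38 collagens and their enzymes 23 fell and 9 rose, a median of -1.03, and of 33 laminin, integrin and basal lamina genes 16 fell and 10 rose. Col3a1, a fibrillar collagen, stood at 1024 and 1015 FPKM in uncrushed cells and 46.2 and 37.2 FPKM at day 5. Col4a1, of the basal lamina, stood at 105 and 90.2 FPKM and then 12.5 and 11.5 FPKM, and Col28a1, a collagen of peripheral nerve, at 78.4 and 72.2 FPKM and then 1.88 and 2.53 FPKM. Each fell without overlap (log2 fold changes -4.63 ± 0.29, -3.04 ± 0.11 and -5.12 ± 0.19). Col1a1 changed by -0.75 ± 0.17, and by -0.47 without day 5 replicate 2. Col18a1 rose from 16.7 and 14.1 FPKM to 61.8 and 58.1 FPKM. Col1a2 was listed at 249 and 12.7 FPKM in the uncrushed libraries, 132 and 124 FPKM at day 5 and 0 in both whole nerve libraries at day 5, so no direction is given for it. The summed fibroblast markers were also lower at day 5 (317 to 409 FPKM against 1456 to 1700 FPKM), and their part in the result was not tested. The laminin chains Lama2 (-1.94 ± 0.10) and Lamb1 (-1.85 ± 0.11) fell, and the integrin Itga5 rose (1.92 ± 0.19). Itga6, a laminin receptor, changed by -0.27 and was not called without uncrushed replicate 1 or without either day 5 library (adjusted p = 0.0999 to 0.191). Of 43 proteoglycan and matricellular genes 18 fell and 9 rose. Tnc, tenascin C, rose from 7.67 and 5.79 FPKM to 81.1 and 79.9 FPKM and Thbs4, a thrombospondin, from 5.29 and 3.35 FPKM to 114 and 134 FPKM. Of 36 matrix proteases and inhibitors 15 rose (41.7%) and 10 fell (27.8%), against 29.0% and 25.6% of all tested genes. Plat, tissue plasminogen activator, rose 5.68-fold. Mmp2, a gelatinase (-1.11 ± 0.22), and Timp1, its inhibitor (-0.40 ± 0.09), fell.

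Cytoskeletal genes were mostly higher. Of 69 actin and motility genes 47 rose and 9 fell, with a median of 0.77, and of 45 tubulin, microtubule and filament genes 26 rose and 6 fell, a median of 0.66. Vim, vimentin, went from 3166 and 2765 FPKM in uncrushed cells to 8676 and 9179.6 FPKM at day 5. Tes, a focal adhesion protein, went from 2.56 and 1.02 FPKM to 49.1 and 68.2 FPKM and Tagln2, an actin-binding protein, from 28.4 and 31.5 FPKM to 228 and 242 FPKM. The values of each group stood well apart (log2 fold changes 1.56 ± 0.10, 4.99 ± 0.28 and 2.93 ± 0.11), and that of Tes was 5.78 without uncrushed replicate 1. Actg1, cytoplasmic actin, rose 1.70-fold and Crmp1, a partner of microtubules in growing processes, from 0.110 and 0.15 FPKM to 7.74 and 7.20 FPKM. Tubb3 rose by 0.70 ± 0.24 but was not called without day 5 replicate 2 (0.43, adjusted p = 0.211) or without either uncrushed library. Of 53 axon guidance genes 14 were higher (26.4%) and 21 lower (39.6%). Sema3e, a secreted semaphorin, rose from 1.14 and 0.910 FPKM to 50.5 and 53.6 FPKM and Sema5a, a transmembrane one, fell from 57.7 and 64.0 FPKM to 0.990 and 0.670 FPKM (56.5-fold and 74.0-fold). Epha5, an ephrin receptor, fell (-2.42 ± 0.17), and Sema3b rose slightly (0.42 ± 0.09).

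Immune genes were more often lower than higher in the purified cells at day 5. Of 46 cytokine, chemokine and receptor genes 18 fell and 10 rose, a median of -0.62. Of 43 genes of antigen presentation and the interferon response 19 fell and 1 rose (2 without uncrushed replicate 1). Of 22 complement genes 10 fell and 2 rose, and neither riser was called without uncrushed replicate 1 or without day 5 replicate 1. Ccl2, which draws monocytes, stood at 514 and 456 FPKM in uncrushed cells and 259 and 172 FPKM at day 5. Irf1, an interferon-induced factor, stood at 110.3 and 93.4 FPKM and then 8.85 and 9.60 FPKM, and Il16 at 15.2 and 15 FPKM and then 0.580 and 1.00 FPKM. In each the groups were apart, by 2.31-fold, 11.2-fold and 17.6-fold. Gbp2, a guanylate-binding protein, was the interferon gene that rose, from 61.5 and 68.5 FPKM to 189.8 and 209.8 FPKM. B2m, the light chain of class I molecules, was not called (-0.09 ± 0.10). Il18, an interleukin of the IL-1 family, had 0 and 1 counts in uncrushed cells and 66 and 55 at day 5, at least 15.2-fold higher. C4a, a complement factor, changed by -3.52 ± 0.42, or -4.25 without day 5 replicate 1. C7, of the lytic complex, rose by 2.94 ± 0.99 but by 0.53 without day 5 replicate 1 (adjusted p = 0.623), and it was not called without either uncrushed library. The myeloid marker sum overlapped between the groups.

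Immediate-early genes, which cells switch on within minutes of a stimulus, were lower at day 5 than in uncrushed cells. Of 33 tested, 25 fell and 2 rose (1 without uncrushed replicate 1 or day 5 replicate 1), with a median of -1.26. Fos stood at 934 and 962 FPKM in uncrushed cells and 276 and 345 FPKM at day 5, Egr1 at 679.6 and 957 FPKM and 219 and 186 FPKM, and Zfp36, which destabilizes cytokine mRNA, at 1875 and 2067 FPKM and 273 and 309 FPKM. All were high in both groups yet without overlap between them. In whole nerve, whose RNA was taken without dissociation or panning, Fos lay at 2.47 and 2.03 FPKM in uncrushed and 11.2 and 12.7 FPKM at day 5, and Jun at 10.3 and 9.39 FPKM and then 38.4 and 40.9 FPKM. The part that cell purification takes in these levels was not tested. Of 40 stress genes 9 were higher (22.5%) and 11 lower (27.5%), no more in all than among all tested genes (4 higher without day 5 replicate 2, and 7 lower without day 5 replicate 1). Atf4, the factor of the integrated stress response, fell from 381 and 372 FPKM to 154 and 175 FPKM, and P4hb, a disulfide isomerase, rose (0.73 ± 0.09). Hspa5, the main chaperone of the endoplasmic reticulum, changed by -0.33 and was not called without uncrushed replicate 1 or day 5 replicate 1 (-0.18, adjusted p = 0.267). Ddit3, a factor of that stress response, changed by -0.81 ± 0.22, by -1.21 without day 5 replicate 2, and was not called without day 5 replicate 1 (-0.47, adjusted p = 0.0741) or uncrushed replicate 2.

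Nuclear genes of oxidative phosphorylation and genes of ribosomal proteins were mostly higher. Of 71 nuclear genes of oxidative phosphorylation 59 rose and none fell, with a median of 0.65, and of 79 cytosolic ribosomal protein genes 73 rose and none fell, with a median of 0.61. Cox5b, of cytochrome oxidase, stood at 63.7 and 79.9 FPKM in uncrushed cells and 258 and 286 FPKM at day 5, and Rplp0, of the large ribosomal subunit, at 197 and 215 FPKM and 385 and 519 FPKM. The groups did not overlap for either (log2 fold changes 1.84 ± 0.15 and 1.09 ± 0.13). The 13 protein genes of the mitochondrial genome, looked at after their values were seen, gave no call by edgeR (1 at an unadjusted p below 0.05, and 1 called by DESeq2), with log2 fold changes of -0.67 to 0.33 and a median of -0.07. Of 31 genes of glycolysis and the pentose phosphate path 15 rose and 7 fell. Pgam1, a glycolytic mutase, rose from 53.5 and 56.2 FPKM to 226 and 248 FPKM, Aldoc, an aldolase, fell from 79.2 and 78.4 FPKM to 13.2 and 13.7 FPKM, and Ldha, which makes lactate, was not called (-0.07 ± 0.10). Of 16 iron genes 5 fell (31.2%) and 3 rose (18.8%). Cp, the ferroxidase ceruloplasmin, fell from 52.4 and 49.8 FPKM to 5.37 and 5.91 FPKM and Ftl1, ferritin light chain, rose 1.96-fold.

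Among signalling lists the Wnt genes leaned to lower values, 22 of 38 against 7 higher, with a median of -0.80. Lgr5, a receptor of R-spondins, stood at 130.4 and 117 FPKM in uncrushed cells and 6.15 and 6.12 FPKM at day 5, and Sfrp5, a secreted inhibitor, at 29.4 and 26.7 FPKM and 0.120 and 0.140 FPKM. Both fell (20.6-fold and 218-fold), while Axin2, a common Wnt target, was not called (-0.19 ± 0.25). Fzd7, a Wnt receptor, had 1 count in each uncrushed library and was at least 19.9-fold higher. Of 41 TGF-beta and BMP genes 20 fell and 9 rose. Tgfb1 rose from 3.15 and 2.81 FPKM to 9.89 and 13.7 FPKM, and Ltbp1 and Ltbp4, which both hold latent TGF-beta in the matrix, parted, from 0.620 and 0.710 to 30.9 and 34.7 FPKM and from 33.0 and 31.8 to 4.58 and 4.08 FPKM. Of 22 Notch genes 8 fell (36.4%) and 4 rose (18.2%), with Hes1, a target, lower (-2.59 ± 0.35), Heyl, another, higher (4.69 ± 0.45, or 3.93 and 6.06 without uncrushed replicate 1 or 2) and Notch1 not called (0.20 ± 0.12). Of 16 hedgehog genes 5 rose and 5 fell (31.2% each, close to the 29.0% and 25.6% of all tested genes), though more fell in a fit of all 16 libraries. Dhh, the Schwann cell ligand, rose 1.73-fold and Gli1, a target, was not called (-1.53 ± 0.70, adjusted p = 0.091). Of 40 PI3K, Akt and mTOR genes 14 fell (35.0%) and 9 rose (22.5%), with Akt1 higher (1.13 ± 0.09), Pik3r1 lower (-0.42 ± 0.09) and Sgk3, a kinase close to Akt, lower (-2.05 ± 0.28). Of 71 genes of the AGE-RAGE pathway list, which holds many collagens, 30 fell and 18 rose, while its receptor Ager was not called (0.86 ± 0.59). Of 41 chromatin regulators 13 rose (31.7%) and 14 fell (34.1%), not far from the shares of all tested genes, with Chd3, a chromatin remodeller, higher (1.53 ± 0.12), Tet1, a methylcytosine oxidase, lower (-2.27 ± 0.14), and Ezh2, a Polycomb methyltransferase, not called (0.20 ± 0.09). Of 22 clock genes 11 fell and 5 rose. Npas2, a partner of Arntl, rose from 0.560 and 0.580 FPKM to 24.7 and 27.9 FPKM, and Bhlhe40 (-2.91 ± 0.15) and Per1 (-1.43 ± 0.16) fell.

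The strongest single genes lay partly outside these lists. Pcsk1, a protease that cuts prohormones, went from 0.610 and 0.380 FPKM in uncrushed cells to 60.3 and 65.8 FPKM at day 5. Gpr83, a G protein-coupled receptor, went from 0.230 and 0.340 FPKM to 77.7 and 68.2 FPKM and Cthrc1, a secreted collagen repeat protein, from 6.59 and 5.17 FPKM to 144 and 140.4 FPKM. Tyrp1, a melanin enzyme, went from 0.660 and 0.860 FPKM to 28.0 and 27.1 FPKM. All were low in uncrushed cells and above 27 FPKM in both day 5 libraries (124-fold, 252-fold, 23.1-fold and 35.8-fold). Rab3b, a GTPase of secretory vesicles, was at least 252-fold higher, Zfp185, a zinc finger protein, at least 178-fold, Pth2r, a peptide hormone receptor, at least 93.9-fold and Emb, embigin, at least 84.5-fold, each against 3 counts or fewer in both uncrushed libraries. Aldh1a2, which makes retinoic acid, had 4 and 0 counts in uncrushed cells against 829 and 729 at day 5, and its fitted log2 fold change of 8.12 ± 0.34 became 12.55 without uncrushed replicate 1, the library with those 4 counts, and 7.23 without uncrushed replicate 2. Slc22a23, a solute carrier, rose 13.4-fold and Ugt1a7c, a glucuronyl transferase, 22.2-fold. Among the falls, the lipid transporters Abca8a (503 and 483 FPKM to 6.27 and 5.39 FPKM) and Abca9 (23.4 and 26.7 FPKM to 0.330 and 0.470 FPKM) lost nearly all of their level. Lect1, an inhibitor of vessel growth, changed by -6.81 ± 0.54 (-8.37 and -6.11 without day 5 replicate 1 or 2) and Sult1a1, a sulfotransferase, by -6.61 ± 0.46 (-7.22 without day 5 replicate 2). Chodl, a membrane lectin, fell 76.4-fold and LRRTM1, a synapse organizer, 56.4-fold.

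Fewer genes were called at day 5 against day 7 than against day 3, though the number of calls in both comparisons rests on the pairs of libraries. Totals were 15806398 and 27562637 at day 3 and 17850534 and 12334355 at day 7, and the part of depth was not tested. Called genes differed by a median absolute log2 value of 0.77 against day 3 and 0.78 against day 7. Against day 3, 1863 genes (12.5%) were called, 911 higher (6.09%) and 952 lower (6.36%) at day 5, with 711 higher and 1024 lower by DESeq2 and 51 higher and 12 lower for a change of at least 2-fold. The number was 628 without day 3 replicate 1, 541 without day 3 replicate 2, 592 without day 5 replicate 1 and 737 without day 5 replicate 2. Against day 7, 291 (1.95%) were called, 115 higher (0.769%) and 176 lower (1.18%), or 82 and 204 with upper quartile scaling, and 57 or 35 were called without day 5 replicate 1 or 2 and 31 or 123 without day 7 replicate 1 or 2. Myelin genes stood out in both. Of 24 structural myelin genes 8 were higher at day 5 than at day 3 (5 to 6 without any 1 library) and 13 were lower at day 5 than at day 7 (5 to 14 without any 1 library). Prx was at 1.93 and 2.04 FPKM at day 3, 15.3 and 18.5 FPKM at day 5 and 58.3 and 39.6 FPKM at day 7. Pmp22 was at 619 and 583 FPKM, then 1120.2 and 1118 FPKM, then 3353 and 2754 FPKM, and Kcna2 at 1.15 and 1.05 FPKM, then 4.35 and 3.48 FPKM, then 20.5 and 16.3 FPKM. The 3 days did not overlap for these genes, and day 5 lay between the others. Another 2 structural myelin genes were lower at day 5 than at day 3. Drp2 was lowest at day 5, at 2.58 and 2.62 FPKM, then 1.21 and 1.81 FPKM, then 8.13 and 5.15 FPKM. Pou3f1 rose from 5.95 and 7.36 FPKM at day 3 to 28.6 and 23.3 FPKM (log2 difference 1.88), and Egr2 rose from 32.2 and 30.7 FPKM to 81.8 and 72.8 FPKM. Runx2 moved the other way, from 147 and 149 FPKM at day 3 to 69.0 and 75.1 FPKM, and Ccnd1 from 354 and 328 FPKM to 183 and 223 FPKM. The calls of Prx, Pmp22, Kcna2, Pou3f1, Egr2, Runx2 and Ccnd1 against day 3, and of Pmp22 and Kcna2 against day 7, held without any 1 library, while Prx against day 7 was not called without day 5 replicate 1 (adjusted p = 0.0515).

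**Figure D4:**
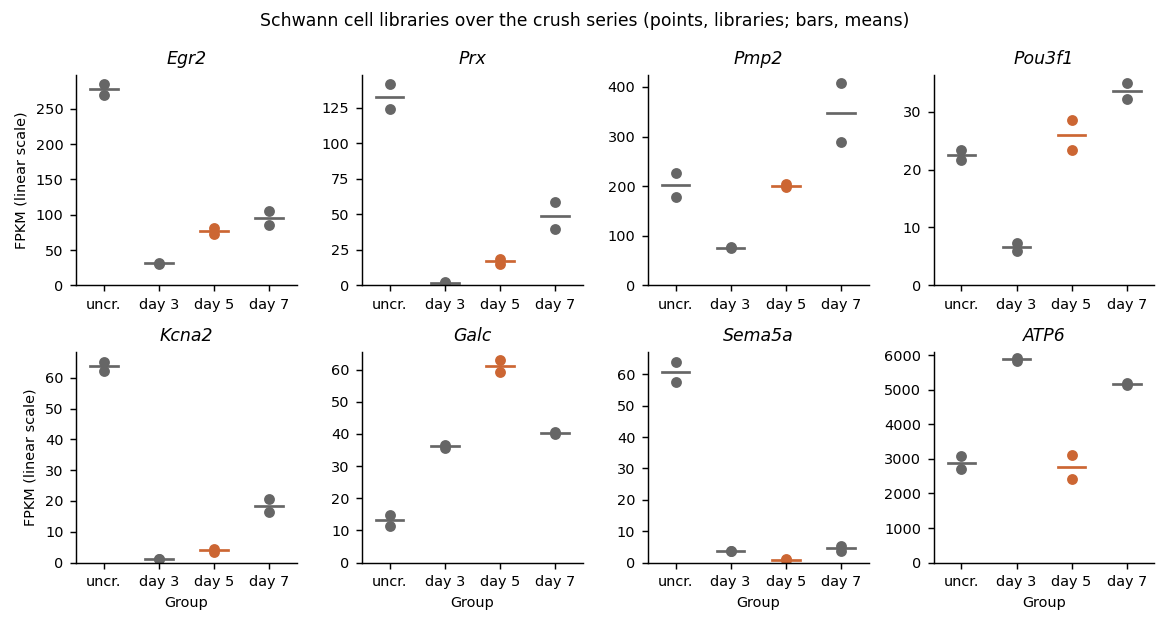
FPKM (vertical axes, linear scale) of 8 genes in the Schwann cell libraries of uncrushed nerve and of days 3, 5 and 7 after crush, with a point per library, a bar at the mean and day 5 in orange. Prx goes from 1.93 and 2.04 FPKM at day 3 to 15.3 and 18.5 FPKM at day 5, Galc peaks at day 5 with 63.0 and 59.3 FPKM, and ATP6 drops at day 5 to 3126 and 2431 FPKM.

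Few genes were called against both other days in the same direction, in comparisons that share the day 5 libraries. At day 5, 8 genes (0.0535%) were above both day 3 and day 7, and 26 (0.174%) below both. Galc was at 36.7 and 35.6 FPKM at day 3, 63.0 and 59.3 FPKM at day 5 and 39.9 and 40.6 FPKM at day 7. Dct, a melanin enzyme, was at 0.58 and 0.46 FPKM, then 5.02 and 5.13 FPKM, then 2.02 and 1.40 FPKM. Neither gene overlapped between days, yet against day 7 both lost their call when any 1 of the 4 libraries was left out, and Galc lost its call against day 3 without either day 3 library or without day 5 replicate 1. Sema5a was lowest at day 5, with 3.53 and 3.53 FPKM at day 3, 0.990 and 0.670 FPKM at day 5 and 5.31 and 3.67 FPKM at day 7, and kept both calls without any 1 library. Genes of the mitochondrial genome were among the 26. ATP6, of ATP synthase, was at 5837 and 5932 FPKM at day 3, 3126 and 2431 FPKM at day 5 and 5200 and 5141 FPKM at day 7, and at 2697 and 3092 FPKM in uncrushed cells. Its call against day 7 was lost without day 5 replicate 2 or either day 7 library. Of the 13 mitochondrial protein genes 11 were lower at day 5 than at day 3 (2 to 8 without any 1 library) and 6 lower than at day 7 (0 to 4). A further 75 genes (0.501%) lay above day 3 and below day 7, and 36 (0.241%) below day 3 and above day 7.

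Whole nerve at day 5 shows how the response of purified cells differs from that of the tissue. In whole nerve 6082 of 15831 genes (38.4%) were called at day 5. A test of the difference between both injury effects, in a fit of all 16 libraries, called 4633 of 16829 genes (27.5%). The effect in Schwann cells was higher for 2120 (12.6%) and lower for 2513 (14.9%), or for 2432 and 2244 with upper quartile scaling. The effect on structural myelin genes was higher in the purified cells, that is a less negative or more positive fold change, for 18 of 25 (15 to 19 without any 1 library). It was also higher for 15 of 25 cholesterol synthesis genes (12 to 15). The effect on mitosis genes was lower for 60 of 68 (54 to 58). Mki67 was at 6.24 and 5.71 FPKM in uncrushed whole nerve and 40.8 and 49.1 FPKM at day 5, against 39.1 and 37.0 FPKM and 73.5 and 69.7 FPKM in Schwann cells. The day 5 level was thus lower in whole nerve than in the purified cells, and so was the uncrushed level. The effect on nuclear oxidative phosphorylation genes and ribosomal protein genes was higher in Schwann cells for 49 of 71 (38 to 49) and 49 of 79 (34 to 47) in the test of the difference.

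**Figure D5:**
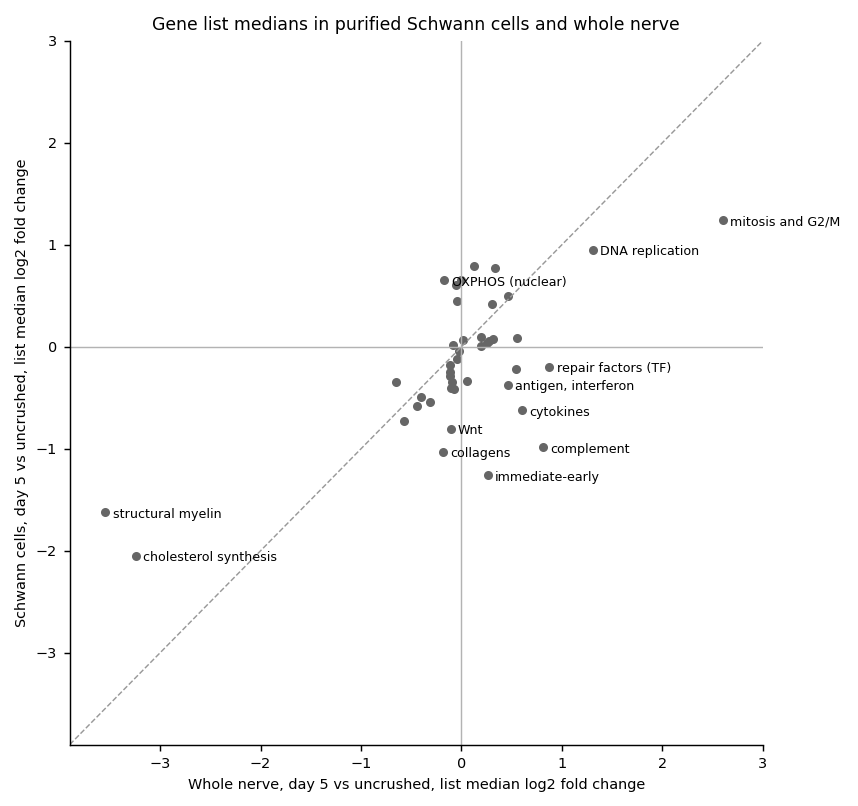
Median log2 fold change of each of the 42 gene lists at day 5 against uncrushed in whole nerve (horizontal axis) and in purified Schwann cells (vertical axis), with a dashed line where both are equal. Structural myelin lies at -3.55 in whole nerve and -1.62 in Schwann cells, and immediate-early genes at 0.26 and -1.26.

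A smaller set moved in opposite directions. Of 14030 genes tested in both tissues and for the difference, 299 (2.13%) rose in Schwann cells and fell in whole nerve, and 209 (1.49%) fell in Schwann cells and rose in whole nerve. Apoe fell in Schwann cells (-2.21 ± 0.18) and rose in whole nerve (1.55), from 210 and 226 FPKM to 855 and 850 FPKM. Ccl2 fell (-1.21 ± 0.24) and rose in whole nerve (3.45), and Jun fell (-0.72 ± 0.10) and rose in whole nerve (1.61). S100b rose (1.97 ± 0.12), from 533 and 430 FPKM to 1900 and 1937 FPKM. In whole nerve S100b fell (-0.85), from 1972 and 1769 FPKM to 1278 and 1471 FPKM, so its uncrushed level was higher there than in the purified cells. The difference was called for each (-3.89, -4.78, -2.45 and 2.7 on the log2 scale) and held without any 1 of the 8 libraries. The injury effect of Schwann cells lay below that of whole nerve for 21 of 33 immediate-early genes (19 to 22 without any 1 library), for antigen presentation and interferon genes in 22 of 52 (18 to 24) and collagens in 21 of 41 (19 to 21). Whole nerve holds leukocytes, fibroblasts and vessels besides Schwann cells, and the myeloid markers summed there to 616 to 656 FPKM in uncrushed nerve and 1833 to 1961 FPKM at day 5. Their part in these differences was not tested.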

How the data were processed

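RNA of 16 libraries was sequenced after amplification, and the authors used STAR on build Rnor_6.0 for alignment and RSEM for counting, each library by itself. The authors deposited expected counts and FPKM per gene, the latter scaled by effective gene length and depth. Here expected counts were rounded and tested with edgeR 4.0.16 (TMM, filterByExpr, quasi-likelihood test, Benjamini-Hochberg adjustment, threshold 0.05) in R 4.3.3, on the 8 libraries of a tissue, or on all 16 for the difference between tissues. FPKM served as levels only. Totals of all libraries ran from 10555067 to 27562637. Fragments carry no molecular identifiers, so the floor of 3 counts covers counting error only. Genes with near-identical copies or an overlapping antisense partner are uncertain.

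The genes and lists were chosen with earlier results of these data known. Named were the genes of lowest adjusted p and of largest change at a mean of at least 10 FPKM, the examples and extremes of each list, and those most different from days 3 and 7 or from whole nerve. DESeq2 1.42.0, other scalings, filters and left-out libraries were alternatives. The authors' pooled count matrix, equal to the library files, and their table of clustering modules were not used.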

Additional observations from a re-analysis of the deposited data

Results flagged for a closer look

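The injury effect of day 5 was set against that of whole nerve by a test of the difference itself, which called 4633 genes. For 12 of them, those of lowest adjusted p in each direction, the values are given here, and each call held without any 1 of the 8 libraries. No explanation was weighed.

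In the first 6 the effect in Schwann cells was the higher one. Cntf, a neurotrophic cytokine, went from 33.6 and 26.6 FPKM to 16.9 and 20.2 FPKM in Schwann cells, and from 206 and 224 FPKM to 7.84 and 6.57 FPKM in whole nerve (difference 4.45 on the log2 scale). Pmp2, the myelin fatty acid carrier, overlapped between groups in Schwann cells while whole nerve went from 2296 and 2310 FPKM to 153 and 153 FPKM (4.16). Both genes lost more of their level in whole nerve. Nbl1, a BMP antagonist, rose from 7.72 and 7.06 FPKM to 63.9 and 73.4 FPKM in Schwann cells, with 41.8 and 42.1 FPKM and then 57.2 and 58.4 FPKM in whole nerve (3.00). Tspan17, a tetraspanin, stood at 58.6 and 56.8 FPKM and then 67.9 and 70.8 FPKM against a fall from 299.8 and 279 FPKM to 47.7 and 48.7 FPKM (3.11). Akr1b1, an aldose reductase, rose from 49.5 and 40.0 FPKM to 105 and 113 FPKM and fell in whole nerve from 213 and 230.45 FPKM to 103 and 91.2 FPKM (2.73). Igfbp5, which binds insulin-like growth factors, rose from 2.53 and 1.82 FPKM to 19.2 and 19.3 FPKM, with 32.0 and 28.0 FPKM and then 32.2 and 29.9 FPKM in whole nerve (3.35). Its FPKM there overlapped between the groups, while the test on counts called it lower in whole nerve (-0.36, adjusted p = 0.0136 by edgeR), a call lost without whole nerve day 5 replicate 2 or uncrushed replicate 1.

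In the other 6 the effect in Schwann cells was the lower one. Cp, ceruloplasmin, fell in Schwann cells and rose in whole nerve from 23.8 and 28.0 FPKM to 69.6 and 75.3 FPKM (-4.41). Col11a1, a fibrillar collagen, fell from 22.3 and 23.1 FPKM to 0.95 and 0.66 FPKM and rose in whole nerve from 19.8 and 26.4 FPKM to 47.5 and 52.3 FPKM (-5.68). Abca9, a lipid transporter, fell in Schwann cells and stood in whole nerve at 20.2 and 25.2 FPKM and then 16.8 and 19.8 FPKM (-5.41). The fibroblast markers summed to 6979 to 7625 FPKM in uncrushed whole nerve and 7906 to 8101 FPKM at day 5. Col4a1, of the basal lamina, fell in Schwann cells and stood in whole nerve at 55.1 and 55.3 FPKM and then 69.3 and 59.1 FPKM (-2.98). Ltbp4, which holds latent TGF-beta, fell in Schwann cells and stood in whole nerve at 13.2 and 13.2 FPKM and then 14.1 and 15 FPKM (-2.78). Ablim1, an actin-binding protein, fell in Schwann cells from 11.7 and 10.1 FPKM to 0.56 and 0.42 FPKM and stood in whole nerve at 14.4 and 12.2 FPKM and then 13.4 and 11.1 FPKM (-4.09).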

How the results depend on the processing

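The count at day 5 against uncrushed was within 1.5 times of 8167 under 12 of 13 alternatives, with 6391 to 7258 calls without any 1 library. Testing for a change of at least 2-fold left 2215 genes (844 higher, 1371 lower), 63 against day 3 (51 higher, 12 lower), 7 against day 7, 1259 in whole nerve and 997 for the difference between tissues, since that test asks for more than a change. Without any 1 library the count was 541 to 737 against day 3 and 31 to 123 against day 7. Against day 7 it was also 1048 with no filter on low counts, 512 with DESeq2 and 179 with the replicate block, and the cause was not tested. Among the Schwann cell groups, same-numbered libraries did not deviate together over all tested genes (correlations of -0.0501 to 0.0536). Whole nerve groups were not checked, and a pairing that acts on few genes would not show in these correlations. With the replicate block 4211 genes were higher and 3685 lower at day 5 against uncrushed. Upper quartile scaling gave 3883 higher and 4167 lower. Of 213 named genes called, 196 kept call and direction under each alternative that gave them a value, other than the 2-fold test, 17 lost the call under some and 0 reversed. Of 251 named genes tested, called or not, 201 had a value with at least 10 counts in every library and 249 in the fit of uncrushed and day 5 cells alone. Counts of lists moved by over 1.5 times under some settings. With at least 10 counts in every library 4 ion channel genes, 4 Wnt genes and 3 clock genes rose and 6 complement genes fell, and with all 16 libraries 10 lipid efflux genes and 8 hedgehog genes fell. Depth limits genes near 3 counts, such as Hmga2, whose uncrushed level is a floor.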
